A study of Mus musculus with 82 samples.

Results

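Chemokines are small secreted proteins that guide leukocytes along concentration gradients. CC and CXC ligands, named for the spacing of their first cysteines, bind G protein-coupled receptors on the cells they attract, and a few ligands (Cxcl16 and Cx3cl1) are made as membrane-anchored proteins. In mammary tumours they are made by cancer cells, fibroblasts, endothelium and infiltrating leukocytes, and they are best known for bringing in neutrophils (ligands of Cxcr2), monocytes (ligands of Ccr2) and T cells (ligands of Cxcr3). Atypical receptors such as Ackr3 and Ackr4 bind chemokines and remove them without classical signalling.

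The genes described here are all genes of the count table whose symbol begins with Ccl, Cxcl, Cx3cl or Xcl followed by a number, with at most 1 letter after it. The rule used no measured value and found 38 of 47480 genes. Of these, 36 had enough counts to be tested. Ccl26 had no count in any library and Ccl21b had 1 count in all. By receptor or role, the genes comprise ligands of Cxcr2 (Cxcl1, Cxcl2, Cxcl3, Cxcl5, Cxcl15), of Cxcr3 (Cxcl9, Cxcl10, Cxcl11) and of Ccr2 (Ccl2, Ccl7, Ccl12, with Ccl8). Further groups are inflammatory CC ligands (Ccl3, Ccl4, Ccl5, Ccl6, Ccl9), eotaxins, ligands of Ccr4, lymphoid and homeostatic ligands, epithelial and mucosal ligands, the membrane-anchored pair, and lymphotactin (Xcl1) with Ccl1.

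The libraries are 82 bulk mRNA-seq libraries of untreated mouse mammary tumours from 13 models. BALB/c is the labelled strain of 2208 (n = 12), 2250 (n = 11), 2225 (n = 10), 2153 (n = 7), 9263 (n = 7), 2336 (n = 5), 4T1 (n = 5), 2224 (n = 4) and T12 (n = 3), 64 libraries in all. FVB is the strain of MMTV-NEU (n = 8), MMTV-PYMT (n = 5) and KPB1-A (n = 2), and C57BL/6 that of E0771 (n = 3), so strain and model cannot be told apart. The MMTV models carry an oncogene (Neu or polyoma middle T) behind the mouse mammary tumour virus promoter, which is active in mammary epithelium, while 4T1 and E0771 are transplantable mammary carcinoma lines. Age, sex, passage and the genotype of the numbered models are not given in the sources used here. The submitters call the libraries biological replicates of individual tumours, but no label says that they came from separate animals, so p-values measure the spread between libraries, which may in part be technical.

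Counts summed to 14.44 M to 132.7 M per library (median 58.19 M), and chemokine genes took 0.00382% to 0.155% of them. The summed level of 4 epithelial markers (Epcam, Krt8, Krt18, Cdh1) was 234 to 396 CPM (counts scaled to library size, with edgeR's TMM factors) in T12 and E0771 and 677 to 6519 CPM elsewhere, and Epcam was at 0.66 CPM in T12. In bulk tissue, fewer cells of a type and less RNA per cell cannot be told apart, so a level below is a level in the whole tumour. Libraries of 9263 and 2153 stood apart within their own models in many chemokine genes, in sets that share consecutive numbers in the titles, and 10 libraries of 5 models had low fibroblast markers. Results that rest on them are given with and without them.

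Chemokine genes lie in clusters, 12 on chromosome 11 and 11 on chromosome 5 (GENCODE M21, mm10). The promoters of Cxcl1, Cxcl2 and Cxcl3 are shown because they hold the same kappa B letters, and that of Cxcl10 because it holds kappa B matches and an interferon element. Sequences are RefSeq promoters on GRCm38.p6, the mm10 build, written 5′ to 3′ on the gene's strand and ending at the base before RefSeq's transcription start. The windows are chr5:90891095-90891244 (plus strand) for Cxcl1, chr5:90903749-90903898 (plus strand) for Cxcl2, chr5:90785951-90786100 (plus strand) for Cxcl3 and chr5:92348890-92349119 (minus strand) for Cxcl10. Capitals mark matches to the kappa B consensus, the site of NF-kB proteins, and in Cxcl10 also to an interferon element (GAAA, any pair of bases, GAAA, on either strand), where interferon-regulated factors bind. Overlapping matches on both strands are joined in 1 run of capitals.
Cxcl1: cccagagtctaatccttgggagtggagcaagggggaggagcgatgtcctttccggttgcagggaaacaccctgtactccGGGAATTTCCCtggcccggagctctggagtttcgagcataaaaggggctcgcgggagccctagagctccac
Cxcl2: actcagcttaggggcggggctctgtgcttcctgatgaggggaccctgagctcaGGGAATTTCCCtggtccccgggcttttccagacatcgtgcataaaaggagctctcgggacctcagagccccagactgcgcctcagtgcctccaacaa
Cxcl3: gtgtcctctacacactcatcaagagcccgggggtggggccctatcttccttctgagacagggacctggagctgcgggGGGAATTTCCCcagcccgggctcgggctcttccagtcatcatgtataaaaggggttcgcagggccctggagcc
Cxcl10: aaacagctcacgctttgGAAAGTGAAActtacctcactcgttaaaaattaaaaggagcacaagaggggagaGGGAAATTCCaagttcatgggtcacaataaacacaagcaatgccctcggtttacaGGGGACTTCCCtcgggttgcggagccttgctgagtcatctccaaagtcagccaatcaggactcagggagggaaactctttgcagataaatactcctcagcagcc

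The same letters, GGGAATTTCC, taken from the match in Cxcl1, stood in Cxcl1, Cxcl2 and Cxcl3, where the match begins 71, 97 and 73 bases before the start. They were found on either strand in the 250 bases before the start in 28 of 32851 RefSeq promoters of all genes (0.0852%). Of 38 chemokine genes, 27 had a promoter in the RefSeq table. The wider kappa B consensus was found in 7 of these 27 (Ccl1, Ccl9, Ccl20, Cxcl1, Cxcl2, Cxcl3 and Cxcl10) and in 7.25% of all promoters, and it includes the GGGAATTTCC matches. The interferon element was found in 3 of 27 (Ccl19, Cxcl10 and Cxcl14) and in 2.98% of all promoters. A match is a description of the letters and does not show a bound site.

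Nearly every chemokine gene that could be tested differed among the 13 models, as did nearly every gene. By the edgeR F test, 35 of 36 passed (Benjamini-Hochberg adjusted p under 0.05 over 22847 genes), beside 98.2% of all genes tested. The exception was Ccl11, an eosinophil attractant (eotaxin), with edgeR adjusted p = 0.219 and means between 2.25 CPM in 2336 and 9.12 CPM in 4T1. The chemokines differed in how far the models were spread. Between the highest and the lowest model, mean Ccl25 differed 2.08-fold (10.4 CPM in 2336, 5 CPM in 4T1) mean Cxcl12 differed 278-fold (729 CPM in T12, 2.62 CPM in 2225) and mean Ccl21a differed 2758-fold (28.5 CPM in 2224, 0.0103 CPM in MMTV-PYMT). The mean of Ccl21a in MMTV-PYMT rests on 1 library (0.0516 CPM, others 0). It lies below the 0.0115 CPM that 3 counts over the group would give, so the size of this fold is not reliable. In the plot of mean levels, Ccl25 is the most even row and Cxcl12 holds the brightest cell.

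**Figure D1:**
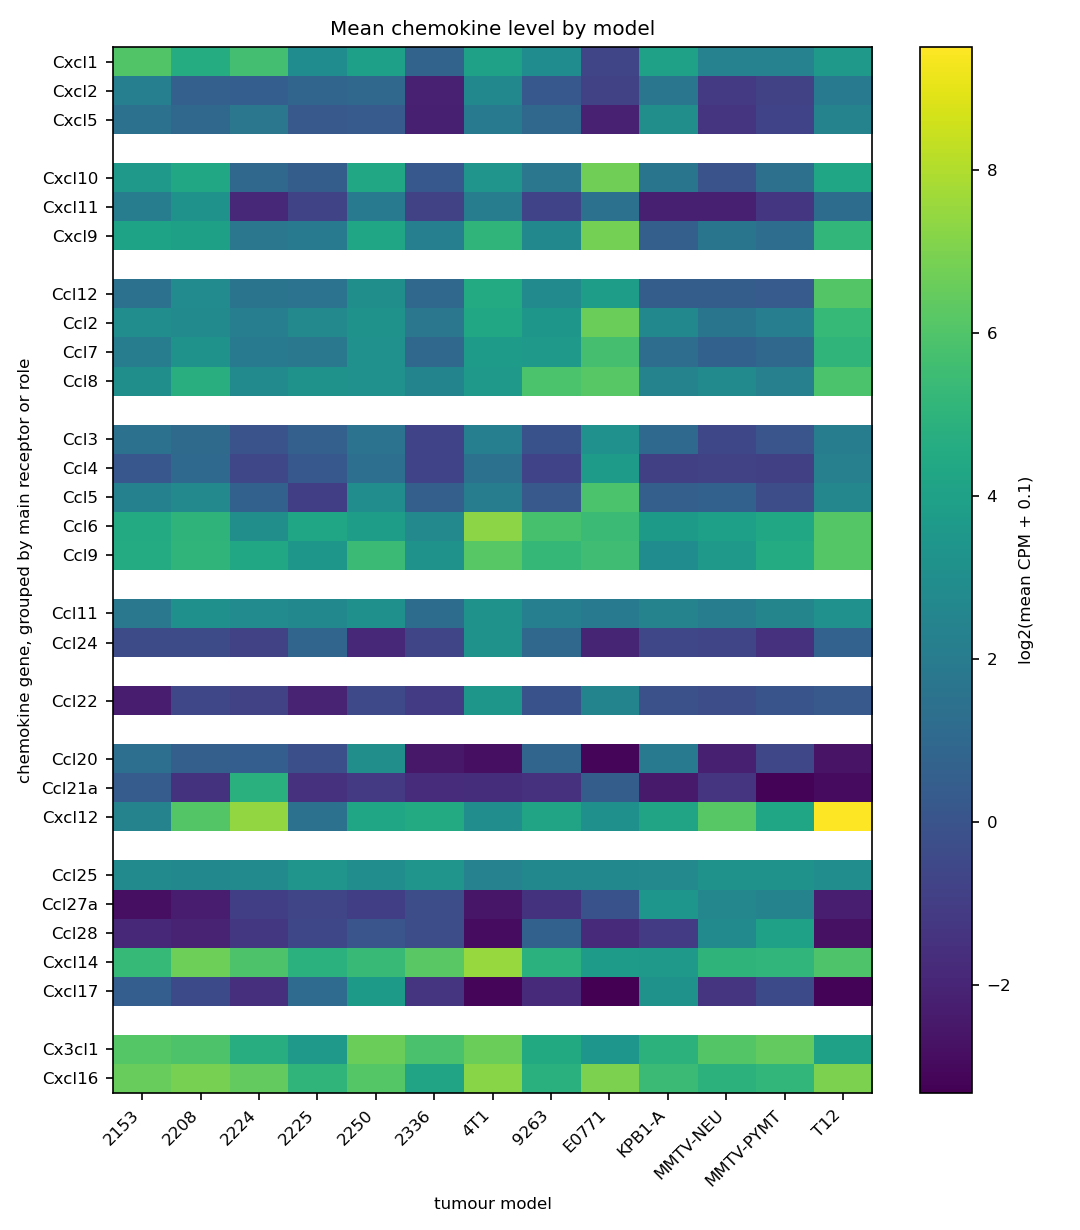
Mean level of the 28 chemokine genes that reach 5 CPM in at least 1 model, as log2(mean CPM + 0.1) by colour, with models in columns and genes in rows grouped by main receptor or role. Cxcl12 in T12 (729 CPM) is the brightest cell, and Cxcl9, Cxcl10, Ccl2 and Ccl7 are each brightest in E0771.

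Of the 38 genes, 28 reached a mean of 5 CPM in at least 1 model. The highest model was 4T1 for 9 of these, E0771 for 8, and T12, 2250 and KPB1-A for 2 each. No other model led for more than 1. The lowest model was 2336 for 6, E0771 for 5, and MMTV-NEU and MMTV-PYMT for 4 each. E0771 thus held both ends, with 8 of the 28 at their highest and 5 at their lowest. The step from the highest to the second highest model passed the test for 5 of the 28 genes: Cxcl12 (T12 over 2224), Ccl5 (E0771 over 2250), Cxcl10 (E0771 over 2208), Ccl21a (2224 over E0771) and Ccl24 (4T1 over 9263). In these pairs of models, 50.9%, 60.5%, 56.1%, 54% and 56.3% of all genes tested differed. For the other 23 genes, whose pairs had backgrounds such as 32.4% (4T1 and T12), 42.4% (E0771 and T12), 44.8% (KPB1-A and T12), 47.3% (KPB1-A and MMTV-NEU), 47.8% (4T1 and 2208), 52.6% (4T1 and 2153) and 58.1% (4T1 and 2250), the test did not separate the top 2 models, which does not show that they are alike.

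Against the mean of the other 12 models on the log2 scale, chemokine genes were called higher most often in 4T1, T12 and E0771, and lower most often in MMTV-NEU, 2336 and 2225. In 4T1, 20 of 36 were higher and 5 lower, where 25.5% of all genes were higher and 23.6% lower. In T12, 18 were higher and 4 lower (24.4% and 23.8% of all genes), and in E0771 17 were higher and 9 lower (29.4% and 26.9%). At the other end, 7 were higher and 16 lower in MMTV-NEU (34% and 28.4%), 4 and 15 in 2336 (30.2% and 25.4%), and 4 and 14 in 2225 (34.2% and 26.8%). MMTV-PYMT had 4 higher and 12 lower (31% and 20.5%). These models lie on either side of their background, as the bars of the share called show. The shares of all genes in each model also stand behind the counts of ligand, receptor and marker groups below.

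In 2250 and 2208, few chemokine genes were called lower beside all genes. In 2250, 14 were higher and 2 lower (32.1% and 27.7% of all genes), in 2208 13 and 3 (29.4% and 24.7%), and in 2153 13 and 7 (29.4% and 23.6%). In 9263, 9 were higher and 7 lower (32.5% and 21.9%), in 2224 8 and 3 (24% and 14.8%), and in KPB1-A 7 and 2 (24.9% and 14.4%). By DESeq2 the balance turned to 6 higher and 7 lower in 2224 and to 5 and 7 in KPB1-A. The count for KPB1-A rests on 2 libraries, and without the first of them 4 genes were called. It was 14 without 10 libraries of low fibroblast markers and 15 without 4 libraries of 9263. The second library of 2224 also weighs on its count, which was 7 without it. The split in 9263 changed between runs: it was 9 higher and 2 lower without the 4 libraries of low macrophage markers. By limma on the authors' normalized table it was 3 higher and 17 lower. That run differs in its scaling and its model of the spread, and the cause of the change was not tested.

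**Figure D2:**
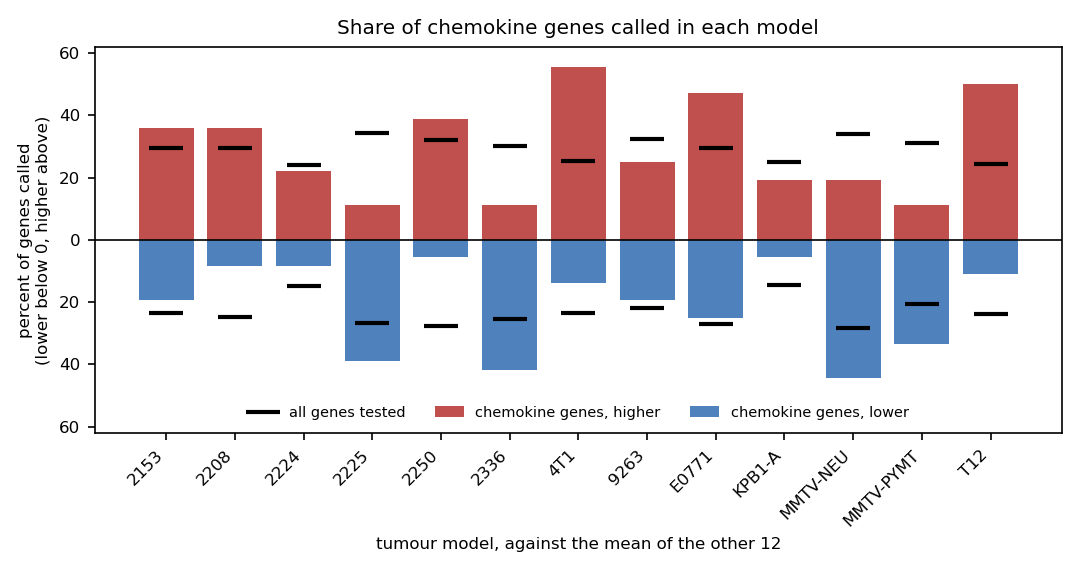
Percent of the 36 tested chemokine genes called higher (above 0) and lower (below 0) in each model against the mean of the other 12, with black marks for the same percentages over all 22847 genes. Bars pass the upper mark furthest in 4T1 and T12, and pass the lower mark in 2225, 2336, MMTV-NEU and MMTV-PYMT.

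The ligands of Cxcr2, which attract neutrophils, were called higher most often in 2153, 4T1 and KPB1-A and lower most often in 2336, E0771 and MMTV-NEU. Cxcl1 had its highest mean in 2153, where its libraries ran from 51.3 through a median of 60.7 to 96.4 CPM. In 2224 it stood at 27.2, 67.5, 64.2 and 46 CPM, overlapping with 2153. In E0771 the same gene stood at 0.342, 0.616 and 0.641 CPM, and every library of every other model was above these values. Against the other 12 models, Cxcl1 was higher in 2153 by 3.03 (log2, SE 0.20, edgeR adjusted p = 6.74e-22) and in 2224 by 2.64 (SE 0.25, p = 1.55e-14, edgeR adjusted).

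Cxcl1 was lower in E0771 than in the other models by log2 -4.48 (SE 0.56, edgeR adjusted p = 1.46e-10). In 2336 its libraries held 1.87, 2.3, 1.45, 0.766 and 1.51 CPM, lower by log2 -2.82 (SE 0.39, edgeR adjusted p = 2.46e-09). Cxcl2, a close paralog of Cxcl1 12.6 kb away, had its highest mean in 4T1, with 3.41, 10.3, 4.82, 6.08 and 7.25 CPM, and its lowest in 2336, with 0.0513 to 0.205 CPM. These groups of libraries do not overlap. Cxcl5, a further Cxcr2 ligand, was highest in KPB1-A at 11.9 and 4.12 CPM, and its call there (log2 2.93, SE 0.56, edgeR adjusted p = 1.14e-05) was lost without the first library (log2 1.90, edgeR adjusted p = 0.104).

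Of the 5 tested ligands of Cxcr2, 4 were called higher in each of 2153, 4T1 and KPB1-A and 3 in each of 2224 and T12, and none of them was called lower there. In 2336, E0771 and MMTV-NEU 4 of 5 were called lower and none higher. The transcript of the receptor, Cxcr2, was likewise called higher in 2153 (8.35 to 30.8 CPM), 2224 (7.5 to 10.6 CPM) and 4T1 (3.99 to 8.59 CPM). It was called lower in 2336 (0 to 0.157 CPM), E0771 (0.0448 to 0.103 CPM) and MMTV-NEU (0.023 to 0.518 CPM). In KPB1-A (1.24 to 1.96 CPM) and T12 (1.01 to 2.19 CPM) Cxcr2 was not called. It was higher in 2208 (1.58 to 10 CPM), where 2 of 5 ligands were higher, and lower in 2225 (0.0512 to 0.839 CPM), where no ligand was called. Cxcl1 and Cxcr2 ordered the models alike, with Pearson's r = 0.94 and Spearman's rho = 0.95 over 13 model means on the log2 scale. This is a description: both genes were read in the same libraries. The summed level of 8 neutrophil markers, 1 of which is Cxcr2 itself, was 68.5 to 379 CPM in 2153, 51.9 to 77.2 CPM in 2224, 2.43 to 12.6 CPM in 2336 and 20.2 to 32.8 CPM in E0771. In E0771 the markers went opposite ways, with Csf3r higher and Camp, Cxcr2, Ngp, S100a8 and S100a9 lower. In KPB1-A none of the 8 was called (sum 9.37 to 31.9 CPM). All 8 were higher in 4T1 (72.8 to 162 CPM), 7 in 2208 and 4 in T12, and none was lower in these 3 models. The part of these markers in the level of Cxcl1 was not tested.

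**Figure D3:**
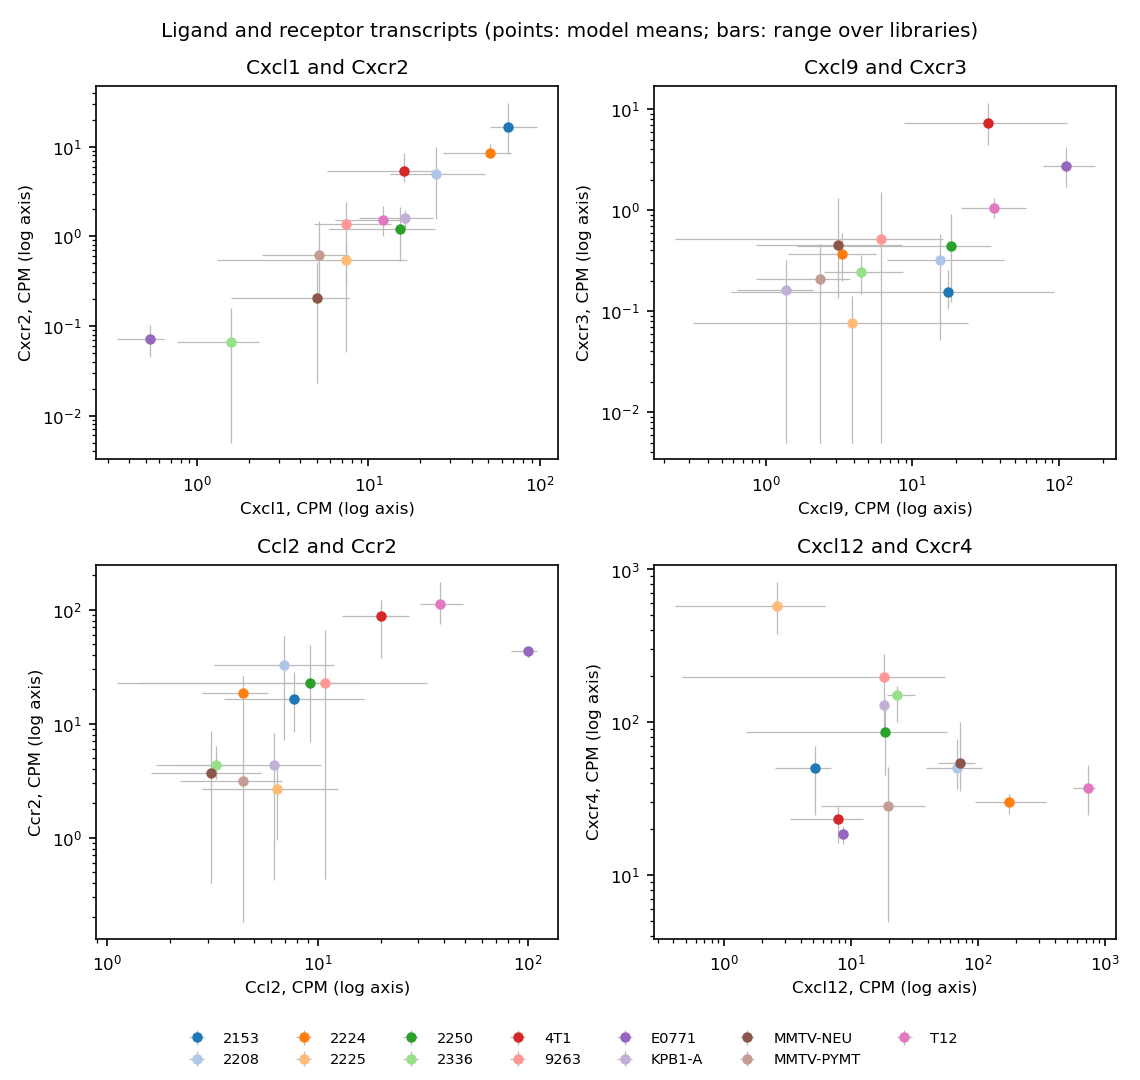
Mean CPM of a ligand (x axis) and of its receptor (y axis) in the 13 models, on log axes, with bars for the range over libraries (a range that reaches down to 0 is drawn to 0.005 CPM). Cxcl1 and Cxcr2 rise together (r = 0.94), whereas 2225 has the highest Cxcr4 (577 CPM) at the lowest Cxcl12 (2.62 CPM).

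The ligands of Cxcr3, which interferon induces and which attract activated T cells, were led by E0771 for Cxcl9 and Cxcl10 and by 2208 for Cxcl11. In E0771 Cxcl9 stood at 79.3, 177 and 78.6 CPM and Cxcl10 at 120, 114 and 86 CPM. No other library had Cxcl10 above 56.3 CPM. For Cxcl9, 1 library of 4T1 (114 CPM, beside 8.77 to 16.5 CPM in the other 4) and 1 of 2153 (92.9 CPM) reached into the range of E0771. The step from E0771 to the next model passed for Cxcl10 (log2 2.36 over 2208, SE 0.62, edgeR adjusted p = 0.000851) and not for Cxcl9 (log2 1.64 over T12, SE 1.20, edgeR adjusted p = 0.275).

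Cxcl11 in 2208 ran from 4.08 through 9.12 to 16.6 CPM over 12 libraries, higher than the other models by log2 3.60 (SE 0.34, edgeR adjusted p = 2.72e-15). Its annotation bears on the comparison, since GENCODE M21 lists Cxcl11 as a polymorphic pseudogene in the C57BL/6 reference. E0771, the C57BL/6 model, had Cxcl11 at 3.42, 2.69 and 1.88 CPM. All 3 ligands of Cxcr3 were called higher in E0771, T12 and 2250, and all 3 lower in MMTV-NEU, where Cxcl10 ran from 0.228 to 2.02 CPM.

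Markers of T cells were highest in E0771, but did not move with these ligands in every model. Their summed level over 7 genes was 33.2, 115 and 36.8 CPM in E0771 and at most 28.6 CPM in any other library. That value of 28.6 CPM belongs to the 4T1 library with Cxcl9 at 114 CPM, and in the other 4 libraries of 4T1 the sum was 7.11 to 14.3 CPM. By contrast, in the 2153 library with Cxcl9 at 92.9 CPM the sum was 3.16 CPM. In MMTV-NEU, where all 3 ligands were lower, 2 of 7 T cell markers were higher and 1 lower, and in 2153, where 2 ligands were higher, 4 of 7 were lower. Cxcr3 itself was highest in 4T1 (4.39 to 11.5 CPM), then E0771 (1.69 to 4.19 CPM). Their part in the ligand levels was not tested.

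The ligands of Ccr2, which bring monocytes out of the blood, were high in E0771 and T12. Ccl2 in E0771 stood at 82.8, 110 and 106 CPM and in T12 at 48.9, 30.6 and 34.6 CPM, and no other library was above 33 CPM. Ccl12, a mouse homologue of Ccl2, had another order: 84.4, 51.7 and 65.9 CPM in T12, 16.8 to 28 CPM in 4T1, and 14.4, 14.7 and 14.4 CPM in E0771. Ccl12 was higher in T12 than in the other models by log2 4.12 (SE 0.36, edgeR adjusted p = 1.37e-16). Its step over 4T1 did not pass (log2 1.54, SE 0.65, edgeR adjusted p = 0.0611), although the libraries do not overlap.

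All 4 genes (Ccl2, Ccl7, Ccl8, Ccl12) were called higher in E0771 and in T12. Ccl2, Ccl7 and Ccl12 were called lower in 2336, MMTV-NEU and MMTV-PYMT. Ccl2 and Ccl7 lie 10.1 kb apart and varied together over the models (r = 0.95 over 13 means). The summed level of 7 macrophage markers, 1592 to 3175 CPM in E0771, 2670 to 3269 CPM in T12 and 1413 to 2510 CPM in 4T1, was above that of every library of the other 10 models (at most 1427 CPM) in all but 1 library of 4T1. Its part in these levels was not tested.

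The inflammatory CC ligands split between E0771 and 4T1. Ccl5, made by T cells among others, stood at 54.4, 77.9 and 45.1 CPM in E0771, and no other library passed 19.9 CPM. Its step over 2250 was log2 2.94 (SE 0.45, edgeR adjusted p = 3.42e-08). At the low end, in 2225, Ccl5 ran from 0.18 through 0.367 to 0.848 CPM, below the other models by log2 -2.91 (SE 0.35, edgeR adjusted p = 2.37e-11). Ccl3 and Ccl4, products of activated macrophages and T cells that lie 14.7 kb apart, were also highest in E0771, with means of 8.94 and 13.6 CPM.

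Ccl6 and Ccl9, which mouse macrophages and other myeloid cells express, were instead highest in 4T1. Ccl6 in 4T1 stood at 179, 81.2, 140, 242 and 142 CPM, higher than the other models by log2 2.91 (SE 0.47, edgeR adjusted p = 1.93e-07). Ccl9 in 4T1 stood at 80.2, 32.2, 66.7, 104 and 81 CPM, overlapping with T12 (57.6, 81.3 and 69.6 CPM). All 5 ligands of this group were called higher in T12 and all 5 lower in 2336. Leukocyte markers thus moved with these groups at both ends: the macrophage sum was 252 to 510 CPM in 2336 and 188 to 428 CPM in 2225.

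Both ligands of Ccr4 (Ccl17 and Ccl22), attractants of type 2 and regulatory T cells, were higher in 4T1, and of the 2 tested eotaxins Ccl24 was higher there and Ccl11 was not called (log2 0.78, SE 0.54, edgeR adjusted p = 0.249). Ccl22, a dendritic cell and macrophage product, was at 6.2, 3.71, 11.4, 14.4 and 18.3 CPM in 4T1 and at 5.86, 6.34 and 4.36 CPM in E0771. It was called higher in both, by log2 4.16 in 4T1 (SE 0.44, edgeR adjusted p = 3.71e-13) and 3.11 in E0771 (SE 0.55, edgeR adjusted p = 1.11e-06). Ccl24 (eotaxin-2) in 4T1 was at 7.73, 3.88, 7.28, 13.5 and 13.7 CPM, higher by log2 4.03 (SE 0.49, edgeR adjusted p = 9.64e-11). Outside 4T1 it passed 5 CPM only in 1 library of 9263, at 5.65 CPM.

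Cxcl12 (chr6:117168535-117181367 in the annotation), a product of fibroblasts and other stromal cells that holds Cxcr4-bearing cells in place, was highest in T12. T12 stood at 831, 558 and 796 CPM, 2224 at 343, 95.2, 140 and 117 CPM, and no other library passed 108 CPM. Against the other models Cxcl12 was higher by log2 5.27 in T12 (SE 0.39, edgeR adjusted p = 1.13e-19) and by 3.03 in 2224 (SE 0.40, edgeR adjusted p = 1.14e-09). T12 exceeded 2224 by log2 2.07 (SE 0.79, edgeR adjusted p = 0.0238).

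At the other end, Cxcl12 in 2225 ran from 0.414 through 1.31 to 6.27 CPM, below the other models by log2 -3.58 (SE 0.48, edgeR adjusted p = 7.03e-10). The signalling receptor Cxcr4 was highest in that model, at 377 to 827 CPM, and higher than in the other models by log2 3.41 (SE 0.15, edgeR adjusted p = 3.89e-33). No library outside 2225 had Cxcr4 above 279 CPM. In T12 the receptor was at 24.9 to 52.9 CPM and the scavenger Ackr3, which also binds Cxcl12, had a mean of 50.4 CPM. Over the 13 models the relation of Cxcl12 with Cxcr4 was weak (r = -0.42, rho = -0.26), as was that with Ackr3 (r = 0.31, rho = 0.30).

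**Figure D4:**
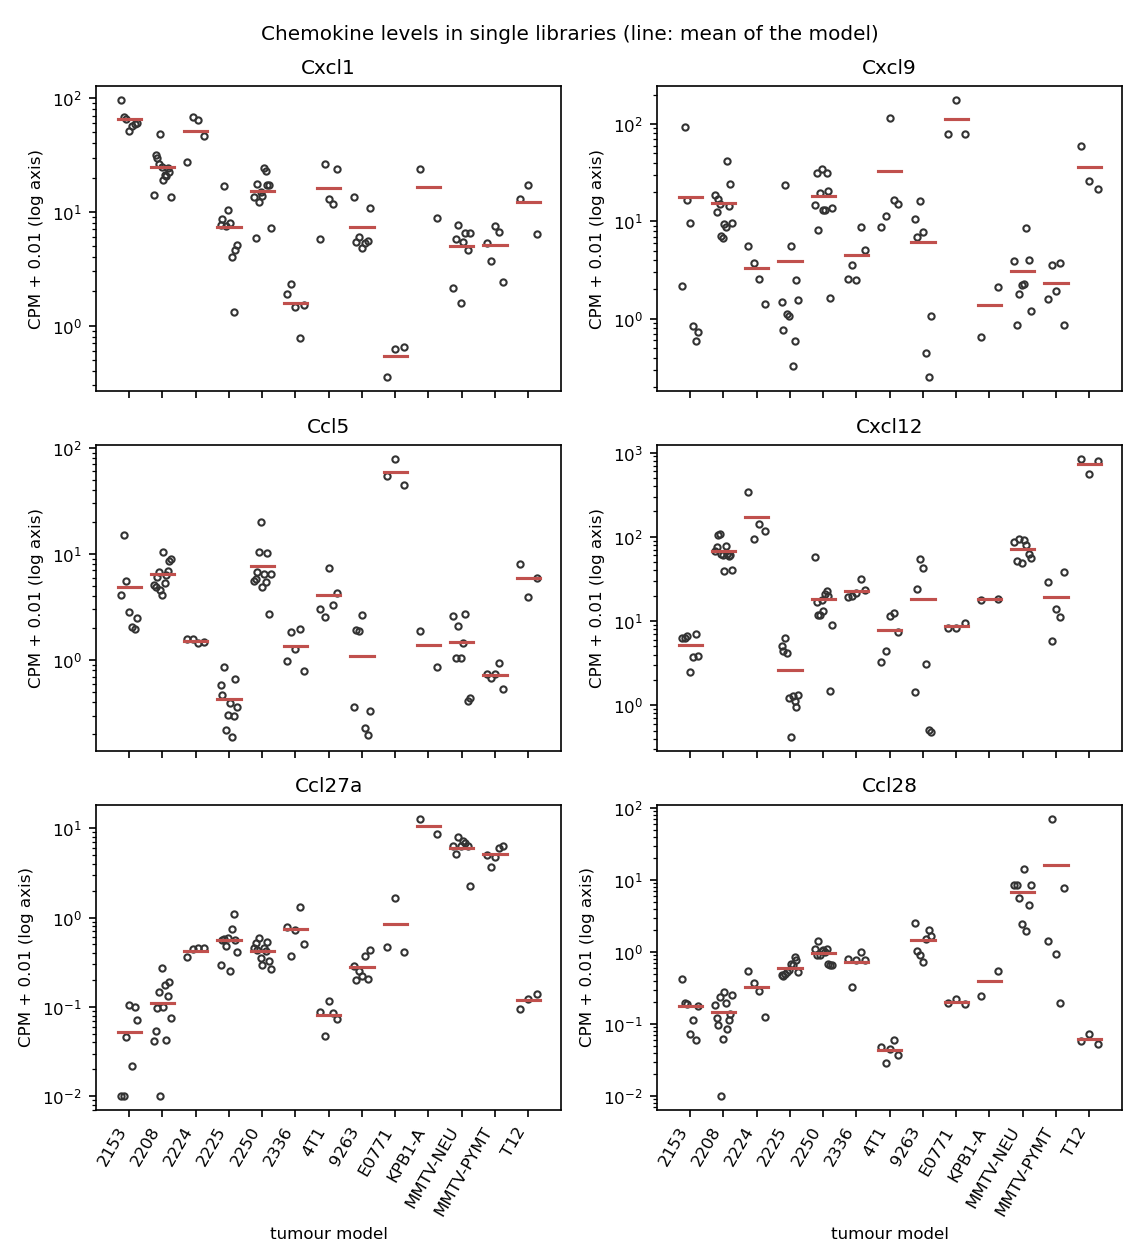
CPM + 0.01 (log axis) of 6 chemokine genes in each library (circles) of each model, with a red line at the mean. Cxcl12 is highest in all 3 libraries of T12, Ccl5 in all 3 of E0771, and Ccl27a in all 15 libraries of the FVB models (KPB1-A, MMTV-NEU, MMTV-PYMT), while Ccl28 in MMTV-PYMT spans 0.184 to 71.1 CPM.

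Other lymphoid ligands were low in most models. Ccl21a, which lymphatic endothelium and lymph node stroma secrete for Ccr7-bearing cells, was at 5.99, 41.9, 26.3 and 39.7 CPM in 2224, and no other library passed 4.21 CPM. It was higher in 2224 by log2 7.14 (SE 0.78, edgeR adjusted p = 3.88e-12). Near-identical copies of Ccl21a lie on chromosome 4 and the annotation gives the symbol 2 loci, so how the reads were divided among copies is uncertain. Markers of lymph node stroma and lymphatic vessels (Lyve1, Prox1, Cr2, Pdpn) summed to 71.5 to 88.2 CPM in 2224, to 162 to 223 CPM in 2336 and to 331 to 360 CPM in T12. The markers went opposite ways, with Prox1 lower and the other 3 higher in T12, and Cr2 lower and Pdpn and Prox1 higher in 2336. In those 2 models Ccl21a was at most 0.636 CPM. The markers' part in the level of Ccl21a was not tested.

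Ccl20, an epithelial product that attracts Ccr6-bearing lymphocytes, was highest in 2250, from 3.17 through 6.72 to 15.3 CPM. It was higher there by log2 4.48 (SE 0.28, edgeR adjusted p = 2.54e-24). In E0771 2 of 3 libraries had a count, with at most 0.0268 CPM. Cxcl17, a mucosal chemokine, was also led by 2250 and KPB1-A, at 5.99 through 10.7 to 20.3 CPM in 2250 and 12.8 and 5.75 CPM in KPB1-A. It had no count in any library of E0771, which allows a level of up to 0.015 CPM (3 counts over the group, counting error only). Ccl20 and Cxcl17 lie on different chromosomes and varied together over the 13 models (r = 0.85).

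Of the epithelial and mucosal ligands, Ccl27a separated the libraries by strain label. In the 15 FVB libraries it ran from 2.24 through 6.27 to 12.8 CPM, in the 64 BALB/c libraries from 0 through 0.259 to 1.29 CPM, and in the 3 C57BL/6 libraries from 0.403 to 1.66 CPM. No FVB library overlapped with another strain. The share of all genes that separate the FVB libraries in this way was not counted, so how unusual this is remains unknown. Ccl27a, a skin-homing ligand of Ccr10, was called higher in KPB1-A (log2 4.72, SE 0.28, edgeR adjusted p = 1.11e-24), MMTV-NEU (3.83, SE 0.21, p = 7.86e-28) and MMTV-PYMT (3.59, SE 0.23, p = 4.1e-23). It has near-identical copies on chromosome 4, of which the table holds Ccl27b, and strain variants of these genes were not examined, so strain, model and the division of reads cannot be told apart.

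Ccl28, a mucosal ligand of the same receptor, was high in both MMTV models but not in KPB1-A. MMTV-NEU ran from 1.96 through 7.07 to 14.4 CPM, higher by log2 4.15 (SE 0.30, edgeR adjusted p = 6.76e-21). MMTV-PYMT stood at 1.4, 71.1, 0.94, 0.184 and 7.72 CPM, so that a single library carried most of its mean of 16.3 CPM. Its difference of log2 5.49 (SE 0.33, edgeR adjusted p = 1.32e-24) was 2.84 (edgeR adjusted p = 6.37e-13) without that library. The same library had the lowest fibroblast sum of its model (105 CPM, beside at least 399 CPM in the other 4), and whether the low stroma plays a part was not tested. KPB1-A had Ccl28 at 0.237 and 0.536 CPM.

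Cxcl14, made by epithelium and fibroblasts, was highest in 4T1 at 190, 195, 210, 178 and 157 CPM (log2 2.33, SE 0.42, edgeR adjusted p = 2.58e-06). Of the 12 libraries of 2208, which ran from 47.7 to 184 CPM, some overlap with these. Ccl25, known from thymus and gut, was the most even member, with every library between 2.81 and 17 CPM. Its SD within models was 0.34 on the log2 scale, below that of Cxcl16 (0.50) and Cx3cl1 (0.54). Its calls of higher levels in 2225 (log2 0.53, SE 0.12, edgeR adjusted p = 0.000122) and 2336 (log2 0.54, SE 0.16, edgeR adjusted p = 0.00357) are therefore small in size.

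The membrane-anchored pair had at least 5.22 CPM in every library and did not run in parallel. Cxcl16, which binds Cxcr6 on T and NK cells, had its highest means in 4T1 (138, 144, 195, 109 and 170 CPM), T12 (128, 137 and 113 CPM) and E0771 (110, 172 and 96.5 CPM), which overlap. Cx3cl1 (fractalkine), the ligand of Cx3cr1 on monocytes, was at 82.2 to 110 CPM in 4T1, but low in T12 (14.1, 21 and 13 CPM) and E0771 (7.78, 9.67 and 14.7 CPM). Both low calls passed, with log2 -1.39 in T12 (SE 0.34, edgeR adjusted p = 0.000422) and -2.02 in E0771 (SE 0.36, edgeR adjusted p = 1.62e-06). Cx3cl1 was also high in 2250, from 69.7 through 96.1 to 148 CPM.

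The 10 genes that never reached a mean of 5 CPM included Xcl1, the lymphotactin of NK and CD8 T cells. It stood at 1.5, 2.1 and 1.45 CPM in E0771 and at 1.67, 1.61 and 1.2 CPM in T12, and was called higher in both (log2 3.18 in E0771, SE 0.48; edgeR adjusted p = 3.65e-08 and, in T12, 3.16e-07). Ccl17, Cxcl3, Cxcl13 and Cxcl15 had highest means of 1.21, 2, 1.41 and 1.92 CPM. Single libraries carried some of these means: Cxcl13, the B cell attractant, was at 9.02 CPM in 1 library of 2153 and at most 0.475 CPM in its other 6. Cxcl15 was at 8.45 CPM in 1 library of 9263 and at most 2.11 CPM in its other 6. Ccl1, Ccl19 and Ccl27b stayed under 1 CPM in every library, and Ccl19, like Ccl21a, has more than 1 locus.

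For a rough comparison between genes, levels were divided by merged exon length, which joins all annotated exons of a gene. It is not the length of the transcript expressed in these tumours (8176 bases for Cxcl12, 537 for Ccl12), and the order of genes depends on it. On this scale the chemokine that led a model differed. Cxcl14 led in 2208, 2336, 4T1 and MMTV-NEU, Ccl8 in 2225, 9263 and E0771, and Cx3cl1 in 2250 and MMTV-PYMT. In 2224 the lead was uncertain, with Cxcl14 at 33.8 and Ccl21a at 22.4 CPM per kb. The length used for Ccl21a (1272 bases) adds the exons of its 2 loci and so lowers its value. Cxcl1 led in 2153 (35 CPM per kb of exon), Cxcl16 in KPB1-A (14.3 CPM per kb) and Ccl12 in T12 (125 CPM per kb, ahead of Ccl8 at 115 and Cxcl12 at 89.1 CPM per kb). The sum over all chemokine genes was 613 CPM per kb in T12, 608 in E0771 and 460 in 4T1, and 102 to 288 CPM per kb in the other 10 models. In 9263 Ccl8 alone was 45.4% of the sum, and this share rested on 3 of its 7 libraries.

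Those 3 libraries of 9263, replicates 2 to 4, carry consecutive numbers in their titles, and the sets of libraries named here were chosen after the values were seen. Ccl8 was at 56.6, 82.4 and 264 CPM in them and at 0.125 to 0.772 CPM in the other 4. Ccl6 was at 105, 117 and 156 CPM against 1.03 to 2.77 CPM, and Ccl9 at 61.9, 90.6 and 103 CPM against 0.852 to 3.14 CPM. Of 36 chemokine genes, 20 were higher in all 3 libraries than in any of the other 4, where 14.4% of all genes tested were, and 5 were lower (18.8% of all genes). The 5 lower genes were Ccl20, Ccl25, Ccl28, Cxcl15 and Cxcl17.

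Macrophage markers split in the same way, with sums of 807, 1085 and 1427 CPM in the 3 libraries and 35 to 127 CPM in the 4. The fibroblast sums were 5408 to 10518 CPM and 597 to 1533 CPM. What the numbers stand for is not stated, and the part of the cell markers in the chemokine levels was not tested. Without the 4 libraries, Ccl8 in 9263 exceeded the other models by log2 3.48 (edgeR adjusted p = 3.24e-07) in place of 2.32 (SE 0.55, edgeR adjusted p = 0.000203). The lower calls of Ccl5 (log2 -1.50, edgeR adjusted p = 0.000332), Cxcl16 (-1.20, p = 2.31e-06) and Cx3cl1 (-0.88, p = 0.00037) were lost without them, at log2 -0.50 (p = 0.361), -0.41 (p = 0.0739) and -0.28 (p = 0.434).

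**Figure D5:**
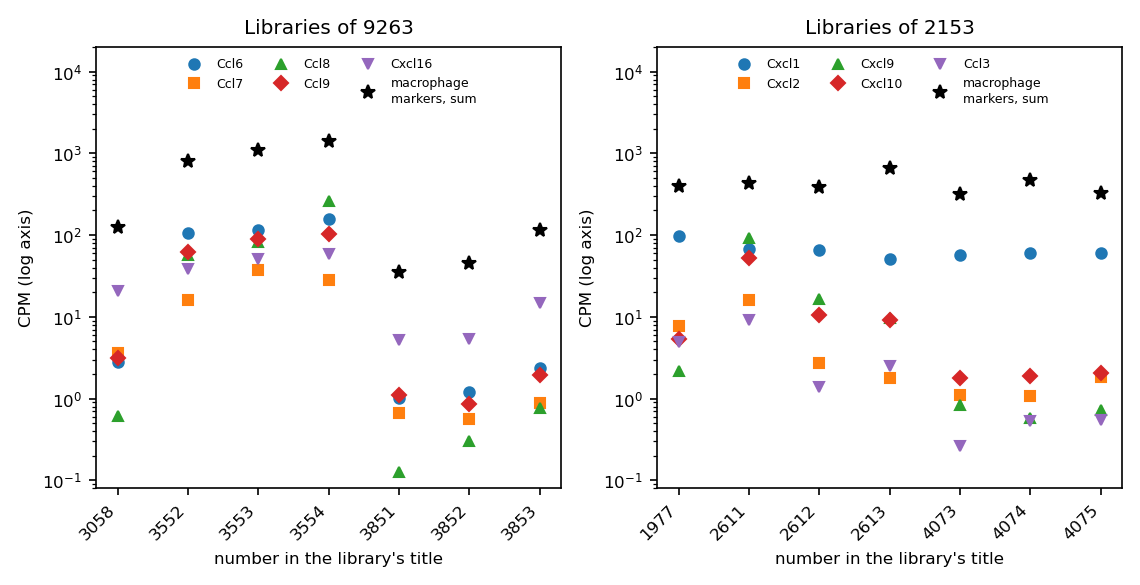
CPM (log axis) of 5 chemokine genes and the summed CPM of 7 macrophage markers (stars) in each library of 9263 (left) and of 2153 (right), by the number in the library's title. In 9263 replicates 2 to 4 lie above the other 4 for Ccl6, Ccl7, Ccl8, Ccl9 and Cxcl16, with higher macrophage sums, and in 2153 replicates 5 to 7 lie below the others for Cxcl9, Cxcl10 and Ccl3 with overlapping macrophage sums.

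The 7 libraries of 2153 fell into 2 sets as well. In replicates 5 to 7, which have consecutive title numbers, Cxcl10 was at 1.77, 1.91 and 2.06 CPM, and in the other 4 at 5.41, 53.1, 10.4 and 9.27 CPM. Cxcl9 was at 0.576 to 0.838 CPM against 2.15 to 92.9 CPM. Of the members, 11 were lower in all 3 than in any of the other 4 (11% of all genes tested were), among them Ccl2, Ccl3, Ccl4, Ccl5, Ccl12 and Cxcl11, and 1, Ccl22, was higher (16.6% of all genes). The macrophage sums overlapped (319 to 467 CPM and 385 to 669 CPM), and the neutrophil sums did not (68.5 to 88.4 CPM and 198 to 379 CPM). The T cell sums did not overlap either, at 1.27 to 1.55 CPM in the 3 libraries and 2.01 to 4.38 CPM in the other 4. The part of these markers in the chemokine levels was not tested.

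With libraries numbered below 3000 left out, which removes the other 4 of 2153 along with libraries of other models, Cxcl10 in 2153 turned from higher (log2 1.18, SE 0.40, edgeR adjusted p = 0.00979) to log2 -1.35 (edgeR adjusted p = 0.13). Cxcl1 did not split in this way: it was at 56.8, 59.6 and 60.7 CPM in the 3 libraries and at 51.3 to 96.4 CPM in the other 4. In 2225, replicates 1 to 4, the lowest title numbers, had Cxcl12 at 4.19 to 6.27 CPM and the other 6 at 0.414 to 1.33 CPM, and 5 of 36 members were higher without overlap (1.85% of all genes) and none lower (2.56%).

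Within each of the 6 models of at least 7 libraries, 6 chemokines were set against a marker of a cell type, which gave 36 relations. By Pearson's r, 9 passed after Benjamini-Hochberg adjustment, all positive, and 3 by Spearman's rho, while 15 had p under 0.05 before adjustment. Libraries of 9263, 2153 and 2225 fall into separate sets, so no r over all their libraries is given. These models hold 5 of the 9 and 1 of the 3. Cxcl12 rose with the fibroblast collagen Col1a1 in 2250 (n = 11, r = 0.93, permutation p = 5e-05, adjusted 0.0018; rho = 0.85, permutation p = 0.00143, adjusted 0.0257).

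Cxcl9 rose with the T cell marker Cd3e in 2208 (n = 12, r = 0.75, permutation p = 0.00491, adjusted 0.0295; rho = 0.80, permutation p = 0.00309, adjusted 0.0371). T cell markers in 2208 also followed the order of the titles in part. Their mean log2 CPM was -2.55 to 0.06 in replicates 1 to 5, which have the lowest CP numbers. It was -2.11 to -1.52 in replicates 6 to 8 and -0.45 to -0.21 in replicates 9 to 11, each with consecutive numbers. In replicate 12, whose title carries ROSEN in place of the CP of all other titles, it was -0.88. The permutation p treats all 12 libraries as exchangeable. In 2208 the relation of Cxcl12 with Col1a1 did not pass (n = 12, r = 0.31, permutation p = 0.333, adjusted 0.521; rho = 0.21, permutation p = 0.516). With the 2 libraries farthest from the median of the marker left out, r was 0.81 for Cxcl12 in 2250 and 0.74 for Cxcl9 in 2208, and neither passed adjustment (0.184 and 0.188). None of the 36 relations passed without those libraries. Fewer libraries also raise the lowest permutation p that can be reached, most in the smallest models. The loss of the calls therefore does not show that the relations rest on those libraries.

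Pairs of ligands were also compared within and between the groups used here, which do not all share a receptor. Over the 13 model means on the log2 scale, the median r was 0.75 for 37 pairs within a ligand group and 0.15 for 341 other pairs. Within groups r went down to -0.69 (Ccl27a and Cxcl14), and Cx3cl1 and Cxcl16 had r = 0.05. Some pairs of a group lie near each other, as with Cxcl9 and Cxcl10 (25.3 kb, r = 0.90), Ccl3 and Ccl4 (14.7 kb, r = 0.91) and Ccl7 and Ccl12 (56.1 kb, r = 0.92). Some pairs on different chromosomes were as close, such as Ccl5 and Cxcl10 (r = 0.94) and Ccl4 and Cxcl9 (r = 0.94). The models share their libraries and their leukocyte content across all pairs, so these values are a description.

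Among 10 CC receptors, 7 were higher and 1 lower in 4T1 (25.5% and 23.6% of all genes), and 7 and none in E0771 (29.4% and 26.9%). In T12, 5 were higher and none lower (24.4% and 23.8%), and in 2208 5 and 1 (29.4% and 24.7%). In 2225, 1 was higher and 7 lower (34.2% and 26.8%), and in MMTV-PYMT 2 and 5 (31% and 20.5%). In MMTV-NEU the counts were 1 and 4 (34% and 28.4%), and in 2336 none and 4 (30.2% and 25.4%). In 2250 none was higher and 3 were lower (32.1% and 27.7%), unlike its chemokines. The counts were 1 and 2 in 2153 (29.4% and 23.6%) and 2 and none in 9263 (32.5% and 21.9%). No CC receptor was called in 2224 (24% and 14.8%) or KPB1-A (24.9% and 14.4%). Ccr2, the monocyte receptor, had means of 113 CPM in T12, 87.6 in 4T1 and 43.3 in E0771, and 2.7 CPM in 2225. Ccr7 departed from its ligands: its highest mean was 19.6 CPM in 9263 (10.5 to 30.6 CPM; log2 4.24, SE 0.30, edgeR adjusted p = 5.71e-21), where Ccl21a did not pass 1.32 CPM. Ackr4, which scavenges Ccl19, Ccl21 and Ccl25, was highest in 2336 at 40.2 to 70.7 CPM (log2 5.45, SE 0.24, edgeR adjusted p = 1.38e-32).

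Genes of the pathways that induce chemokines were mostly higher in E0771 and mostly lower in 2336. Of 11 genes of the NF-kB and interferon pathways, 10 were higher and none lower in E0771 (29.4% and 26.9% of all genes). In 2336 (30.2% and 25.4%) and in 2225 (34.2% and 26.8%), 1 was higher and 9 lower. In 4T1 (25.5% and 23.6%), 8 of the 11 were higher and none lower, and in 2153 (29.4% and 23.6%) 7 were higher and 1 lower. In MMTV-NEU (34% and 28.4%), 4 were higher and 4 lower. Of the 3 genes with a GGGAATTTCC match, Cxcl1 and Cxcl2 were called lower in E0771, Cxcl2 at 0.256, 0.362 and 0.835 CPM. Cxcl3 was not called there (log2 -1.82, SE 1.16, edgeR adjusted p = 0.182). All 3 were called higher in 2153 and 4T1 and lower in 2336 and MMTV-NEU, and none of the 3 was called in 2225. The part of these pathways in the chemokine levels was not tested. The platelet chemokines that the symbol rule leaves out, Pf4 and Ppbp, were both higher in 4T1, and in T12 Pf4 was higher at a mean of 13.7 CPM.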

How the data were processed

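RNA-seq libraries were made from cryopreserved tumours with a TruSeq mRNA kit, per the labels' protocols, and STAR, SAMtools, Picard, Salmon and mm10 are named without versions in the submitters' processing notes. The authors deposited expected counts per gene, which were rounded to whole numbers here. Their second deposited table is a signal: each count divided by the library's 75th percentile of non-zero counts and multiplied by 1000, with 1 in place of 0, as checked on the files. Tests used edgeR 4.0.16 (R 4.3.3) quasi-likelihood with TMM factors and 22847 genes kept by filterByExpr (minimum count 10, minimum total 15), 1 mean per model and 69 residual degrees of freedom, and Benjamini-Hochberg adjusted p under 0.05 over all genes. Each model was set against the unweighted mean of the other 12 on the log2 scale, so a contrast need not follow arithmetic means. Levels are TMM-scaled CPM. Named members reach a mean of 5 CPM in a model, and the leading 3 per direction in each model were followed through the alternatives. Those were DESeq2 1.42.0, limma 3.58.1 on the signal table, other filters and left-out libraries. No 2 of 279 pairs of libraries of a model were duplicates by chi-square (lowest 12.6 per degree of freedom). The code was tested on simulated data. The members and lists were chosen with earlier results of these data known, and the sets of libraries by title number after their values were seen.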

Additional observations from a re-analysis of the deposited data

Results flagged for a closer look

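In models of 4 to 10 libraries, the highest or lowest library stood apart from the others by Dixon's criterion in 16 of 224 combinations of a chemokine gene and a model, where chance gives about 1 in 20 (11.2). The highest library stood apart for Cxcl9 in 4T1 (114 CPM in replicate 3, others 8.77 to 16.5 CPM), Ccl20 in 4T1 (0.165 CPM, others 0 to 0.0185 CPM), and Ccl24 and Ccl21a in MMTV-PYMT (1.21 CPM, others 0 to 0.0408 CPM, and 0.0516 CPM, others 0). The lowest library stood apart for Ccl3 (1.74 CPM, others 4.88 to 6.17 CPM) and Ccl4 (1.27 CPM, others 2.85 to 3.64 CPM) in replicate 1 of 4T1.

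In MMTV-PYMT the lowest library was apart for Cx3cl1 (25.8 CPM in replicate 2, others 92.7 to 105 CPM), the same library that has Ccl28 at 71.1 CPM, and for Ccl12 (0.245 CPM in replicate 5, others 1.03 to 1.76 CPM). In 2224 it was apart for Ccl27a (0.354 CPM, others 0.431 to 0.443 CPM) and Cxcl17 (0 CPM, others 0.291 to 0.357 CPM), both in replicate 1, and for Cxcl11 (0.0739 CPM, others 0.202 to 0.242 CPM). In replicate 1 of 2153 it was apart for Cxcl16 (74.2 CPM, others 87.5 to 98.5 CPM) and Cxcl17 (0.493 CPM, others 1.23 to 1.79 CPM). The remaining lowest libraries were Ccl27a in MMTV-NEU (2.24 CPM, others 5.18 to 7.99 CPM), Ccl28 in 2336 (0.314 CPM, others 0.77 to 0.985 CPM) and Ccl4 in 2225 (0.358 CPM, others 0.77 to 1.75 CPM).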

How the results depend on the processing

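Of 62 named pairs of a gene and a model (36 higher, 26 lower), 45 kept direction and call under every alternative run, and of 2206 values 2132 kept both, 70 lost the call and 4 changed sign. Under limma on the authors' table the sign changed in 9263 for Ccl8 (log2 -0.91, adjusted p = 0.351), Ccl6 (-0.80) and Ccl7 (-0.36). With libraries numbered below 3000 left out, it changed for Cxcl10 in 2153 (-1.35), and 11 genes were called there in place of 20; T12 has no value under this setting. Leaving out 10 libraries of low fibroblast markers, or 4 libraries of 9263, was chosen after seeing the data. In KPB1-A, 9 calls became 14 without the 10 libraries and 15 without the 4. The within-model relations went from 9 to 0 without the 2 farthest libraries, where fewer libraries also make a low p harder to reach. By DESeq2 the split was 6 higher and 7 lower in 2224 and 5 and 7 in KPB1-A. The cause was not tested.

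Leaving out 1 library at a time gave 18 to 21 calls in 2153, 15 to 19 in 2208, 7 to 12 in 2224 (7 without replicate 2), 14 to 18 in 2225, 15 to 17 in 2250, 17 to 20 in 2336, 24 to 25 in 4T1, 15 to 16 in 9263, 20 to 27 in E0771, 4 to 10 in KPB1-A (4 without replicate 1), 22 to 24 in MMTV-NEU, 12 to 17 in MMTV-PYMT and 17 to 23 in T12. The libraries left out singly were those of 2224, 2336, 4T1, E0771, KPB1-A, MMTV-PYMT and T12, and replicate 12 of 2208. For 2153, 2225, 2250, 9263 and MMTV-NEU the ranges therefore come from leaving out libraries of other models. They do not show how far a model's own libraries weigh on its count. Genes differing among models numbered 34 to 35. No paired analysis was possible because the labels give the models no shared replicate numbers. Levels near 3 counts per library are limited by depth.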
